A study of Mus musculus with 39 samples.

Results

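The genes described here encode the machinery that starts transcription: the subunits of RNA polymerases I, II and III, the general initiation factors, the TBP-associated factors (TAFs) and the Mediator complex. They were chosen by name, as every gene whose mouse RefSeq symbol starts with Polr1, Polr2, Polr3, Gtf2 or Gtf3, or is Med or Taf followed by a number. Of 110 such genes in the annotation, 91 were measured, by 136 probes, among 16316 named genes tested on the array. They fall into Pol I (5 genes), Pol II (9), Pol III (8), the general factors of Pol II (16), TFIIIA and TFIIIC (7), TAFs (19) and Mediator (27). Among the 19 genes not measured were *Polr2a*, *Polr3g*, *Taf1*, *Taf4* and *Taf4b*.

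As background, Pol I transcribes ribosomal RNA, Pol II transcribes messenger RNA and Pol III transcribes transfer RNA and 5S ribosomal RNA. TFIID, made of TBP and TAFs, recognises Pol II promoters, TFIIA, TFIIB, TFIIE, TFIIF and TFIIH complete the initiation complex, and Mediator relays signals from bound transcription factors to Pol II. The mouse egg is transcriptionally silent after maturation and relies on stored maternal transcripts, many of which are degraded as the zygotic genome is activated by the 2-cell stage. Germ cells also carry related copies of some general factors, such as *Gtf2a1l* for the large TFIIA gene *Gtf2a1* and *Taf7l* for *Taf7*.

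The study asked how trichostatin A (TSA), an inhibitor of histone deacetylases, and the ETS-family transcription factor Spi-C change gene expression in cloned embryos. All samples carried the strain label (B6xDBA/2)F1, and no group carried an engineered allele. The groups were metaphase II oocytes from adult females (OC, 7 arrays), 2-cell embryos from in vitro fertilization (IVF, 6), cumulus cells that served as nuclear donors (Cumulus, 4), and 2-cell embryos cloned by transfer of a cumulus cell nucleus. The clones were untreated (TSA(-), 8), given 5 nM TSA for 8 h from activation (TSA(+), 6), or injected at the pronuclear stage, without TSA, with Spi-C mRNA at 1.0 mg/ml (Spi-C 1.0, 4) or 0.1 mg/ml (Spi-C 0.1, 4). Embryos were cultured for 24 h, and each array held RNA of 10 pooled oocytes or embryos, or of 500 cumulus cells, after linear amplification. The labels do not say whether the pools of a group came from separate animals or days, so that p-values measure the spread between these pools only.

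Each level given here is log2 of the processed intensity of a probe minus the 75th percentile of its array, and a gene with several probes is represented by its brightest. Differences between groups were tested with limma over 39520 probes, and a gene was called higher or lower at a Benjamini-Hochberg adjusted p under 0.01. A called gene is said to have lost its call where a refit gave an adjusted p of 0.01 or more. Levels of different genes cannot be set against each other on this scale. The 75th percentile of intensity was 282 to 534 in OC, 1031 to 1623 in IVF, TSA(-) and TSA(+), 815 to 1122 in Cumulus and 2145 to 2713 in the Spi-C groups, and 48.6 to 59.6% of probes were well above background in OC against 58.2 to 77.4% elsewhere. Defining markers fit the labels: the log2 of the summed level of 7 oocyte markers was 11.02 to 11.77 in OC against -0.08 to 0.92 in Cumulus, and that of 9 cumulus markers was 7.83 to 7.95 in Cumulus against 1.68 to 3.16 in every other group. Of the 91 genes, 77 were well above background on every OC array, 91 on every IVF array, 90 in each of TSA(-) and TSA(+), 91 in both Spi-C groups and 85 in Cumulus. *Taf1c* and *Taf7l* were so on no OC array, and *Med13l* and *Taf7l* on no Cumulus array. The Spi-C and Cumulus arrays were on slides of their own and read by a later scanner model and software version, so that slide and group cannot be told apart in any comparison of them with another group.

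**Figure D1:**
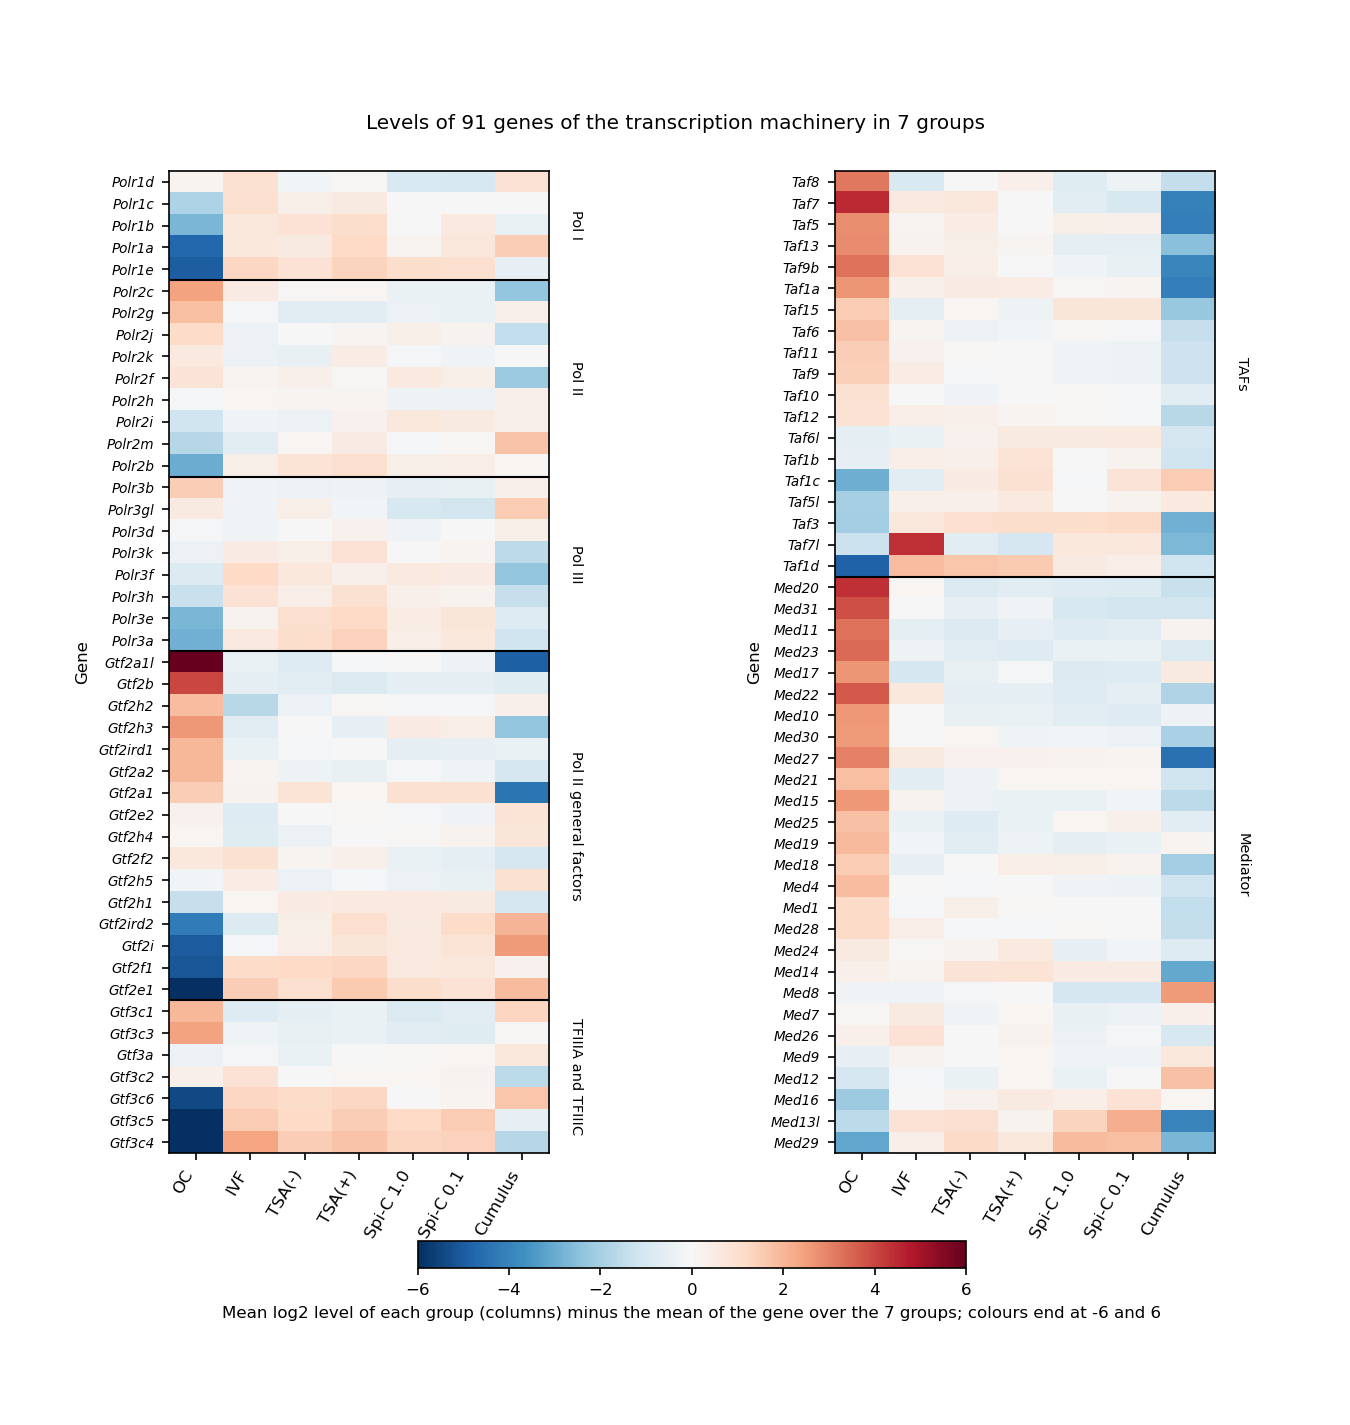
Mean log2 level of each of the 91 genes in the 7 groups, minus the mean of that gene over the groups (red higher, blue lower, colours ending at -6 and 6), ordered within each complex by the difference between OC and IVF. The OC column holds the strongest colours, with 4 of 5 Pol I genes blue (*Polr1d* is the exception) and 21 of 27 Mediator genes red.

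The starting points of these genes are shown by the 250 bases before the RefSeq transcription start (GRCm38.p6) of 5 of them: the general factors *Gtf2a1l*, which fell, and *Gtf2e1*, which rose, from oocyte to embryo, the germ-cell copy *Taf7l*, and *Taf13* and *Gtf2f1*, which were lower after Spi-C injection and hold the ETS core. The 5 genes were chosen with their values known. *Taf1d* and *Polr3gl* fell further after Spi-C injection than *Taf13* and *Gtf2f1* (log2 differences of -1.19 and -1.36) and hold no ETS core. Capitals mark matches on either strand to any of 4 motifs. The box bound by the TATA-binding protein was searched as the letters TATAAA. The box read by the nuclear factor Y complex was searched as CCAAT. The core of the sites of ETS-domain proteins, the family that Spi-C belongs to, was searched as CCGGAAG. The site of Sp1-type proteins, called the GC box, was searched as GGGCGGG. The sequences lie at chr17:88668410-88668659 (+ strand) for *Gtf2a1l*, chr16:37539790-37540039 (- strand) for *Gtf2e1*, chrX:134476491-134476740 (- strand) for *Taf7l*, chr3:108571449-108571698 (+ strand) for *Taf13* and chr17:57011289-57011538 (- strand) for *Gtf2f1*.
Gtf2a1l: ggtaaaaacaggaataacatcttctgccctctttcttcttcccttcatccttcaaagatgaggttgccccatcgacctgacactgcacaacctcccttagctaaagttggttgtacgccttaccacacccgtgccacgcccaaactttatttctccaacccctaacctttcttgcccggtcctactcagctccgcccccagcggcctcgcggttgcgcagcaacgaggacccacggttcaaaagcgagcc
Gtf2e1: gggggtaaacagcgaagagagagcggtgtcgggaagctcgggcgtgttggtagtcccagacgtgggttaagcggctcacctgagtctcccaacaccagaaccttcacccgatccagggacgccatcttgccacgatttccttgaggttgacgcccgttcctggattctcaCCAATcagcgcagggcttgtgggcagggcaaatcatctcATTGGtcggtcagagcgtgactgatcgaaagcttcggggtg
Taf7l: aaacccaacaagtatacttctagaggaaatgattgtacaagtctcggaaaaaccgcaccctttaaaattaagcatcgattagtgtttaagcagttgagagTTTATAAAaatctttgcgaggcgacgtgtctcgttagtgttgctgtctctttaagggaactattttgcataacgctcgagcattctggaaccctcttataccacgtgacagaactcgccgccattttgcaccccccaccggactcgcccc
Taf13: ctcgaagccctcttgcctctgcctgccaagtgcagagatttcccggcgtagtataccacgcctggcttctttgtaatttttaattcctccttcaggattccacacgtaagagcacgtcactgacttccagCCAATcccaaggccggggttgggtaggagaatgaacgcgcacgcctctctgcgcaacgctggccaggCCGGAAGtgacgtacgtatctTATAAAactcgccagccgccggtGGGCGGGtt
Gtf2f1: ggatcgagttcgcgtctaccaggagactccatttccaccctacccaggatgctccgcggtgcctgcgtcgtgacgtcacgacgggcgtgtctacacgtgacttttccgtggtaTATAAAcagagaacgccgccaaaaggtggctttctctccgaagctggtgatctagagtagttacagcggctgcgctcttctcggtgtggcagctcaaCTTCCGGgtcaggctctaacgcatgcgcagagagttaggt

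The *Gtf2a1l* window held none of the 4 motifs. *Gtf2e1* held a CCAAT box on each strand, at 80 and 41 bases before the start. *Taf7l* held overlapping TATAAA and TTTATA at 148 and 150 bases before the start. *Taf13* held all 4, with TATAAA at 32 and CCGGAAG at 53 bases before the start, and *Gtf2f1* held TATAAA at 137 bases and the reverse form CTTCCGG at 40 bases.

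A promoter window was given for 80 of the 91 genes. The ETS core stood in 24 of them (30%), against 7.83% of the 27025 genes with a window and 11.7% of the 13012 named genes tested that have one. By complex it stood in 7 of 18 TAFs, 6 of 23 Mediator genes, 4 of 15 general factors, 3 of 7 TFIIIA and TFIIIC genes, 2 of 7 Pol II genes and 1 of 5 genes in each of Pol I and Pol III. The TATA box stood in 12 of the 80 (15.0%, against 12.4% of named genes tested), the CCAAT box in 28 (35.0%, against 39.9%) and the GC box in 28 (35.0%, against 39.3%). A match describes the letters in the window only.

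To examine the transition from egg to embryo, IVF was compared with OC. Of the 91 genes, 35 were higher in IVF and 48 lower (91.2% called), where 72.1% of named genes were called, 27.9% higher and 44.2% lower. The median log2 difference was -0.62 over the 91 genes and -0.70 over all named genes. The complexes differed in how their genes divided. Of the 38 genes with several probes, 5 had probes called in opposite directions (*Gtf2a1*, *Med1*, *Polr3b*, *Polr3k* and *Taf15*). All 5 Pol I genes and 5 of 8 Pol III genes were higher in IVF, and 18 of 27 Mediator genes and 10 of 12 TFIID genes were lower. The split depended on scaling, since quantile normalization, which moved the median of all probes from -0.87 to -0.33, gave 45 higher and 26 lower, and centring each array on its median gave 23 higher and 51 lower. OC arrays were also the dimmest, and the part of that in these differences was not tested.

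**Figure D2:**
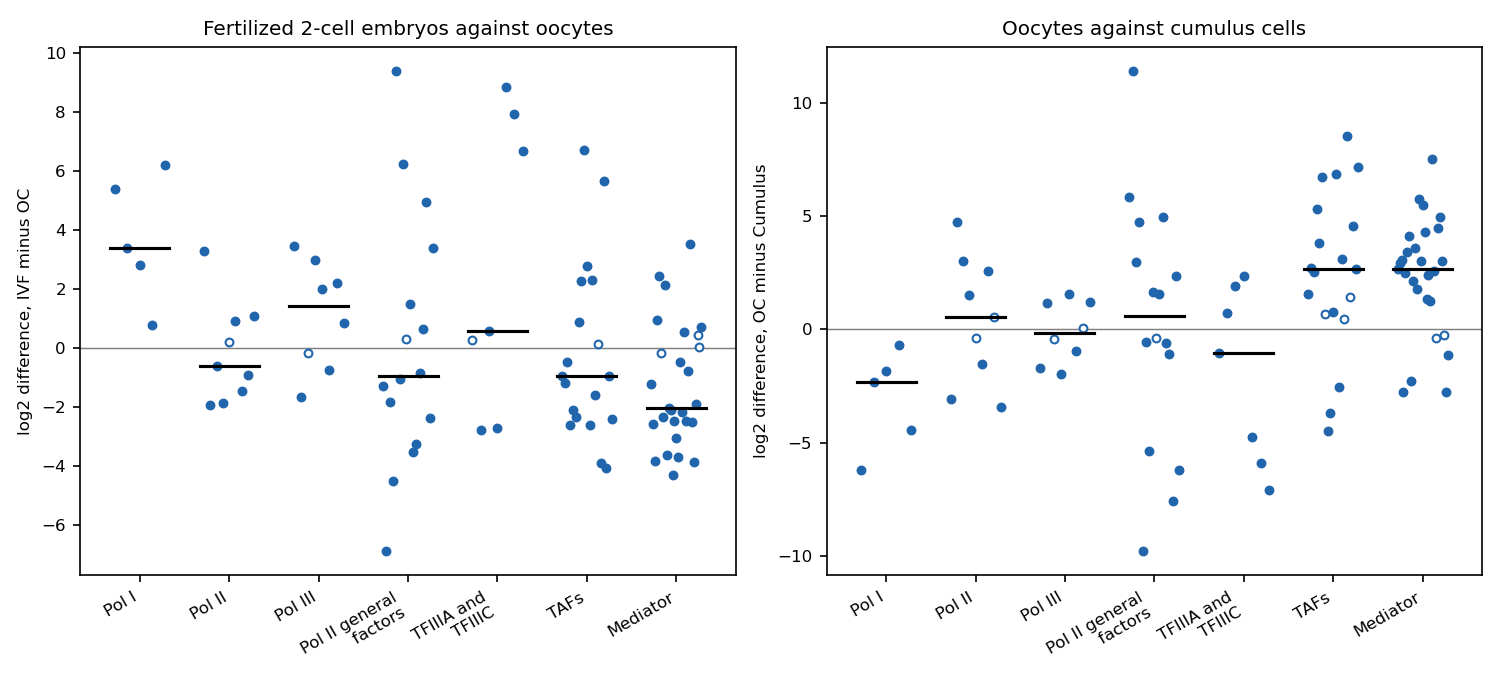
log2 difference of each gene (1 point per gene) by complex for IVF minus OC and OC minus Cumulus. Filled points mark genes called by limma at an adjusted p under 0.01, open points the rest, and a bar the median of each complex. Pol I lies above 0 in IVF minus OC and below 0 in OC minus Cumulus, and Mediator lies mostly the other way, a split in IVF minus OC that quantile normalization brings to 10 higher and 11 lower for Mediator.

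Pol I was higher in IVF in every one of its 5 measured genes, with a median log2 difference of 3.40. The levels of *Polr1a*, the largest catalytic subunit, ran from -7.24 to -2.16 in OC (median -4.20) and from 0.51 to 1.46 in IVF (median 0.76). The groups did not overlap, and 5 of 7 OC arrays were well above background. The difference was 5.38 ± 0.44 (SE, limma adjusted p = 6.44e-12). *Polr1e*, a Pol I-specific subunit, rose by 6.19 ± 0.43 (adjusted p = 1.65e-13), from a median of -3.83 to one of 2.00, with 6 of 7 OC arrays well above background. *Polr1b*, the other large catalytic subunit, lay between -1.64 and -0.42 in OC (median -1.15) and between 2.06 and 2.66 in IVF (median 2.29), a rise of 3.40 ± 0.20 (adjusted p = 1.77e-15). *Polr1d*, shared by Pol I and Pol III, rose least, by 0.78 ± 0.16 (adjusted p = 0.000122). All 5 were also called higher under quantile normalization and under normexp background correction, and 4 when arrays were centred.

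Pol II divided, with 3 genes higher and 5 lower. *Polr2b*, which forms the active centre together with the unmeasured *Polr2a*, lay between 0.71 and 2.73 in OC (median 2.18) and between 4.57 and 5.38 in IVF (median 5.10). It rose by 3.30 ± 0.26 (adjusted p = 2.91e-12) with no overlap. *Polr2i*, a small subunit, rose by 0.93 ± 0.16 (adjusted p = 4.68e-06), and *Polr2m*, which encodes a Pol II-associated protein, by 1.09. *Polr2c*, a subunit needed for assembly of the enzyme, lay between 7.91 and 9.04 in OC (median 8.71) and between 6.53 and 6.81 in IVF (median 6.72), and it fell by 1.93 ± 0.15 (adjusted p = 1.1e-12). *Polr2g*, a stalk subunit, fell by 1.88. Under quantile normalization *Polr2c* and *Polr2g* turned to 0.35 and 0.23, and Pol II had 4 genes higher and none lower.

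In Pol III, 5 genes were higher and 2 lower, with a median of 1.42. *Polr3a*, the largest subunit, lay between -2.46 and -0.69 in OC (median -1.32) and between 1.83 and 2.29 in IVF (median 2.08), a rise of 3.47 ± 0.21 (adjusted p = 5.03e-15). *Polr3e* rose by 2.99 ± 0.20 (adjusted p = 7.09e-14). *Polr3b*, the partner of *Polr3a* in the active centre, fell by 1.67, but its probes opposed each other, and the mean of its probes gave 0.79. *Polr3k*, a small subunit, rose by 0.84 by its brightest probe, but its other probes gave -1.56 and -2.08. *Polr3gl*, the widely expressed copy of the unmeasured *Polr3g*, fell by 0.74 ± 0.19 (adjusted p = 0.000954), and its levels overlapped between the groups.

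TFIIIC, which binds inside tRNA genes and recruits Pol III, had called genes in both directions. Its subunits *Gtf3c4*, *Gtf3c5*, *Gtf3c6* and *Gtf3c2* rose, and *Gtf3c1* and *Gtf3c3* fell. *Gtf3c2* rose by only 0.58 with overlapping arrays, and it lost its call with slide as a fixed block (adjusted p = 0.0179). *Gtf3c4* lay between -7.33 and -2.09 in OC (median -4.12, 6 of 7 arrays well above background) and between 4.72 and 5.19 in IVF (median 4.91), a rise of 8.83 ± 0.50 (adjusted p = 1.36e-15). *Gtf3c5* lay between -5.95 and -2.46 in OC (median -4.09, 4 of 7 arrays) and between 3.47 and 3.79 in IVF (median 3.52), a rise of 7.92 ± 0.36 (adjusted p = 7.24e-18). The OC arrays were low and widely spread for both, and none reached an IVF array. *Gtf3c1* fell by 2.77 and *Gtf3c3* by 2.71. *Gtf3a*, which binds the 5S rRNA gene, did not pass the test (log2 difference 0.29).

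Among the general factors of Pol II, genes changed in both directions. *Gtf2a1l*, the germ-cell copy of the large TFIIA gene, lay between 6.40 and 7.48 in OC (median 7.05) and between -0.15 and 0.36 in IVF (median 0.19). It fell by 6.89 ± 0.55 (adjusted p = 3.03e-12) with no overlap. *Gtf2a1* itself lay between 3.70 and 5.64 in OC and between 2.53 and 3.91 in IVF, overlapped between groups, and fell by 1.27 ± 0.28 (adjusted p = 0.000224) by its brightest probe. Its probes opposed each other, and its difference was 0.45 by the mean of its probes and 0.28 under quantile normalization. *Gtf2b*, which bridges TBP and Pol II, lay between 8.76 and 9.42 in OC (median 9.09) and between 4.36 and 4.91 in IVF (median 4.54), a fall of 4.52 on the log2 scale with an SE of 0.16 (adjusted p = 1.37e-20).

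In the other direction, *Gtf2e1*, the large subunit of TFIIE, lay between -7.98 and -3.89 in OC (median -6.93), with only 1 of 7 arrays well above background, and between 2.29 and 3.18 in IVF (median 2.70). With each OC array set no lower than its dimmest measured probe, the gene was at least 214-fold higher in IVF (adjusted p = 5.53e-19). *Gtf2f1*, the large subunit of TFIIF, lay between -1.19 and 0.31 in OC (median -0.17) and between 5.58 and 6.13 in IVF (median 5.87), a rise of 6.23 ± 0.21 (adjusted p = 6.53e-21). The small subunits of these factors differed from their partners, since *Gtf2e2* fell by 1.03 and *Gtf2f2* did not pass the test (log2 difference 0.30). *Gtf2h2*, a core subunit of the repair and initiation factor TFIIH, lay between 1.68 and 2.56 in OC and between -1.46 and -1.11 in IVF, and fell by 3.54 ± 0.16 (adjusted p = 4.27e-18).

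Among TAFs, 10 of 12 TFIID genes were lower in IVF and 3 of 4 genes of SL1, the TAF complex of Pol I, were higher. Under quantile normalization the TAFs gave 9 higher and 5 lower in place of 6 and 12. *Taf8* lay between 4.22 and 4.76 in OC (median 4.55) and between -0.14 and 0.61 in IVF (median 0.53), a fall of 4.07 with an SE of 0.15 (adjusted p = 7.82e-20). *Taf7* lay between 3.75 and 5.52 in OC (median 4.92) and between 0.40 and 1.45 in IVF (median 0.99), a fall of 3.88 with an SE of 0.23 (adjusted p = 2.29e-15). *Taf13* and *Taf9b* fell by 2.60 and 2.40. *Taf7l* went the other way from *Taf7*: it was well above background on no OC array, where it lay between -7.91 and -5.78, and on every IVF array, where it lay between -3.95 and -0.67 (median -1.16). It was at least 12.95-fold higher in IVF (adjusted p = 7.57e-10). *Taf1d*, an SL1 subunit, lay between -5.19 and -2.61 in OC and between 2.73 and 3.36 in IVF, a rise of 6.70 ± 0.27 (adjusted p = 3.88e-19).

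**Figure D3:**
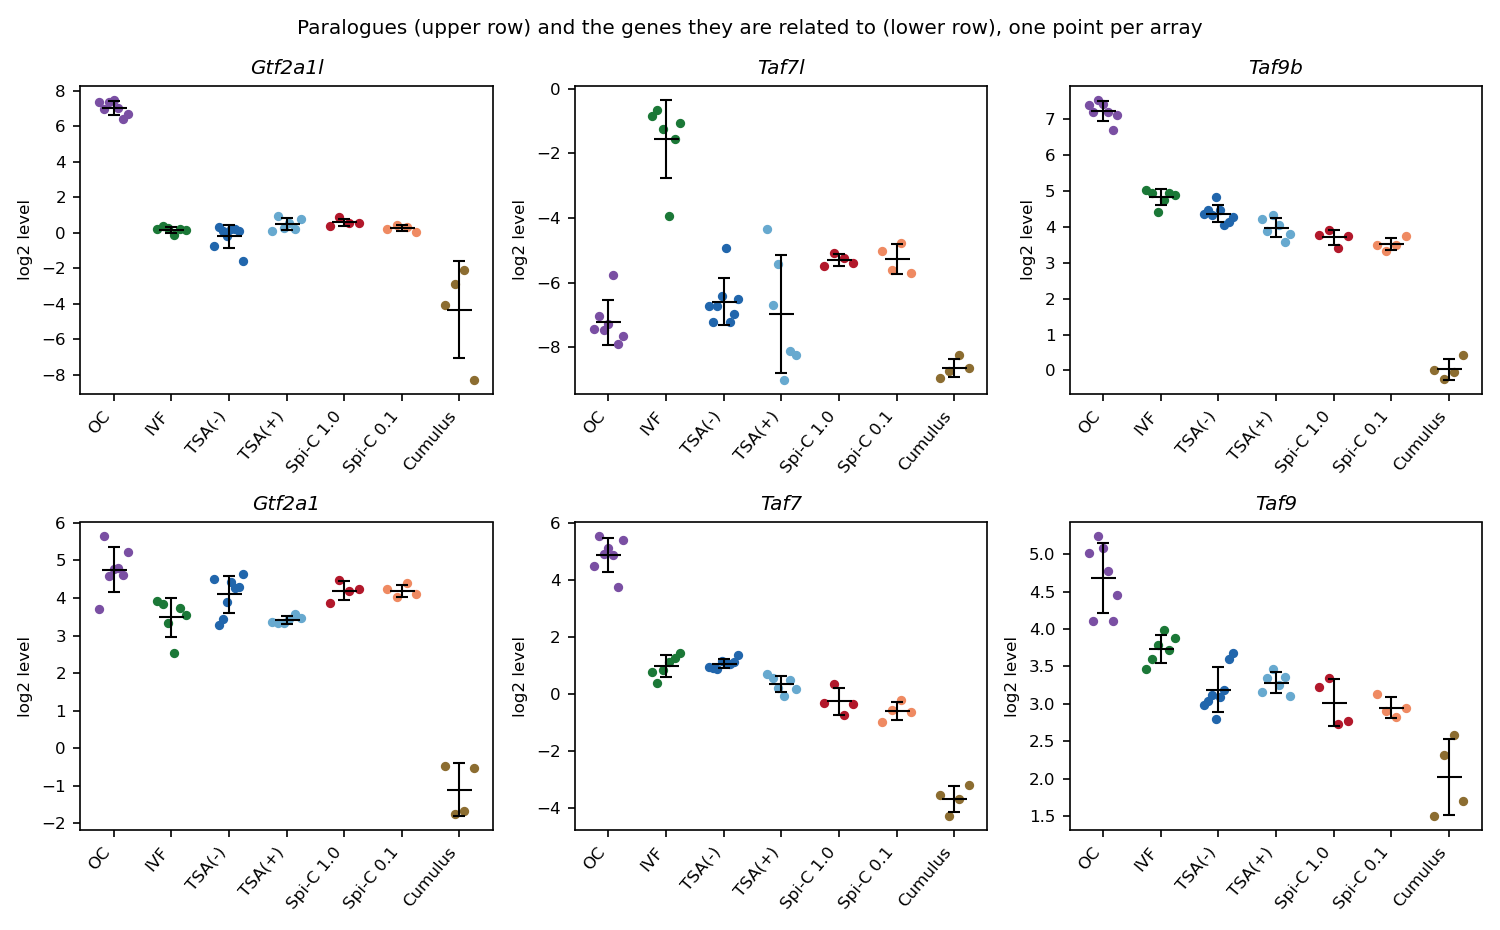
log2 level on every array (points) with the mean and SD of each of the 7 groups for *Gtf2a1l*, *Taf7l* and *Taf9b* (upper panels) above *Gtf2a1*, *Taf7* and *Taf9* (lower panels), each panel with its own axis. *Gtf2a1l* stands between 6.40 and 7.48 in OC and near 0 in all embryos, while *Taf7l* is highest in IVF, where 5 arrays lie between -1.56 and -0.67 and 1 lies at -3.95.

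Mediator was lower in IVF in 18 genes and higher in 6, with a median of -2.03, but quantile normalization gave 11 lower and 10 higher. By module, 6 of 7 head genes were lower and none higher, 4 of 5 tail genes and 5 of 8 middle genes were lower, and both measured kinase module genes, *Med12* and *Med13l*, were higher. *Med12* rose by 0.94, with 1 of its 2 probes called, and lost its call with slide as a fixed block (adjusted p = 0.011). *Med13l* rose by 2.43, with 4 of 7 OC arrays well above background. *Med20*, a head subunit, lay between 7.36 and 7.96 in OC (median 7.58) and between 2.99 and 3.58 in IVF (median 3.44), a fall of 4.29 with an SE of 0.22 (adjusted p = 1.2e-16). *Med31*, a middle subunit, fell by 3.85 and *Med22*, of the head, by 3.06. *Med29* was the Mediator gene with the largest rise, from between -3.37 and -2.82 in OC to between -0.10 and 0.82 in IVF (3.53 ± 0.19, adjusted p = 5.27e-16). *Med14*, the backbone that joins head, middle and tail, did not pass the test (-0.17 ± 0.18, adjusted p = 0.415). *Med1*, through which nuclear receptors contact Mediator, fell by 1.23 by its brightest probe, while its other probes gave -3.28 and 1.92 and quantile normalization turned the brightest to 0.45.

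The recipient oocyte was next compared with the donor cell. Of the 91 genes, 52 were higher in OC than in Cumulus and 29 lower (89.0% called, against 75.9% of named genes, 45.9% higher and 29.9% lower). TFIID and Mediator were the complexes on the oocyte side, with 11 of 12 TFIID genes and 21 of 27 Mediator genes higher, and Pol I was on the cumulus side, with all 5 genes lower in OC. Probes of *Gtf3c2*, *Med14* and *Taf5l* were called in opposite directions. The direction of these splits was the same under quantile normalization, centring and normexp, with 20 Mediator genes higher and 5 lower under quantile normalization. Pol II (4 higher, 3 lower), Pol III (3 and 3), the general factors (8 and 7) and TFIIIA and TFIIIC (3 and 4) divided nearly evenly.

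*Gtf2a1l* differed most, with levels of -4.07, -2.91, -2.12 and -8.28 on the Cumulus arrays, 3 of them well above background. It was 11.40 ± 0.62 higher in OC (adjusted p = 2.27e-16), and 10.09 without Cumulus replicate 4 or 12.14 without replicate 3. *Taf7* was -3.54, -4.26, -3.67 and -3.17 in Cumulus, a difference of 8.52 ± 0.26 (adjusted p = 1.06e-22). *Med27*, which links head and tail of Mediator, was 0.65, 1.17, 1.38 and 0.58 in Cumulus against 8.16 to 8.72 in OC, a difference of 7.50 ± 0.16 (adjusted p = 3.04e-26). *Taf9b*, an X-linked copy of *Taf9*, was 0.01, -0.25, -0.05 and 0.44 in Cumulus, a difference of 7.18 ± 0.18 (adjusted p = 1.49e-24). No Cumulus array of these 4 genes reached an OC array.

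*Gtf2e1* was 2.98, 3.04, 3.35 and 3.16 in Cumulus, and it was at least 283-fold lower in OC by the same bound (adjusted p = 1.16e-18). *Polr1a* was 1.63, 2.00, 1.98 and 1.39 in Cumulus, with OC at -6.22 ± 0.50 relative to it (adjusted p = 2.59e-12). *Gtf2i*, a multifunctional factor, and *Gtf3c6* were lower in OC by differences of -7.55 and -7.08, with 6 and 4 of 7 OC arrays well above background. *Taf1c*, of SL1, was at least 7.78-fold lower in OC, where no array was well above background (adjusted p = 2.27e-10).

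The fertilized embryo was also compared with the donor cell. Of the 91 genes, 50 were higher in IVF than in Cumulus and 15 lower (71.4% called, against 64.4% of named genes, 34.5% higher and 29.9% lower), and centring each array on its median gave 32 higher and 29 lower. TAFs had 14 genes higher and 1 lower, Mediator 16 and 4, Pol III 4 and 1, and Pol I 3 and 0. *Taf7l*, well above background on no Cumulus array, was at least 30.06-fold higher in IVF, and *Med13l* at least 13.2-fold higher. *Med27* and *Taf9b* were higher by 5.04 ± 0.17 and 4.78 ± 0.19 (adjusted p = 2.44e-21 and 1.59e-19). Both TFIIA large genes were higher, *Gtf2a1* by 4.58 ± 0.33 and *Gtf2a1l* by 4.51 ± 0.64 (3.20 without Cumulus replicate 4 and 5.25 without replicate 3). The largest falls were those of *Gtf2ird2* (-2.84) and *Med8*, a head subunit (-2.76). *Gtf2e1*, *Gtf2b*, *Polr2b* and *Polr1a* did not pass the test, with differences of -0.40, 0.22, 0.22 and -0.83.

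Cloned embryos were compared with IVF embryos. In TSA(-), 8 of the 91 genes were higher than in IVF and 12 lower (22.0% called, against 23.6% of named genes, 10.6% higher and 13% lower), and in TSA(+) 13 were higher and 12 lower (27.5%, against 24.5%, 10.8% higher and 13.7% lower). Both shares lay near the background. Of the 38 genes with several probes, 10 in TSA(-) and 11 in TSA(+) had some probes called and some not. Centring each array gave 16 higher and 4 lower for TSA(+). The comparisons share the IVF arrays, so the values of both are given side by side, TSA(-) first.

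*Taf7l* differed most from IVF in both kinds of clone. Its levels lay between -7.22 and -4.91 in TSA(-) (median -6.73, 5 of 8 arrays well above background) and between -8.99 and -4.33 in TSA(+) (median -7.40, 3 of 6 arrays). The range of IVF, -3.95 to -0.67, lay above both. The differences from IVF were -5.03 ± 0.57 and -5.41 ± 0.61 (limma adjusted p = 7.59e-08 and 7.51e-08), and both probes of the gene were called lower in each. *Taf7l* lies on chromosome X, as do *Taf9b*, *Med12* and *Med14*, which gave differences from IVF of -0.45, -0.35 and 0.63 in TSA(-) and -0.84, 0.18 and 0.68 in TSA(+). Among these, *Taf9b* was called in TSA(+) and *Med14* in both, although *Med14* was called in only 4 of 14 refits of TSA(-) and 2 of 12 refits of TSA(+) that each left out 1 array, and lost both calls with slide as a fixed block (adjusted p = 0.111 and 0.0188). The donor cumulus cells came from female mice, and the labels do not give the sex of the pooled IVF embryos. The part of sex in these differences was not tested.

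Among genes higher in clones, *Gtf2h2*, of TFIIH, lay between -1.46 and -1.11 in IVF, between -0.38 and 0.42 in TSA(-) and between 0.07 and 0.70 in TSA(+), and was higher by 1.30 ± 0.15 and 1.72 ± 0.16 (adjusted p = 1.51e-07 and 3.85e-09). *Taf8* lay between -0.14 and 0.61 in IVF, between 1.11 and 1.5 in TSA(-) and between 1.43 and 1.99 in TSA(+), with rises of 0.90 ± 0.15 and 1.23 ± 0.16 (adjusted p = 2.51e-05 and 7.05e-07). Both genes had fallen from OC to IVF, and the clone levels lay between those of the oocyte and the fertilized embryo. *Gtf2e2* was higher by 0.74 and 0.86, *Polr2m* by 0.75 and 1.11 and *Polr3e* by 0.74 and 0.97. With 1 array left out, *Polr3e* was called in 11 of 14 refits of TSA(-). With slide as a fixed block, *Gtf2h2* and *Polr3e* were still called in TSA(-), while *Taf8*, *Gtf2e2* and *Polr2m* lost their calls (adjusted p = 0.0152, 0.0196 and 0.0351). All 5 were still called in TSA(+) with that block. Among Mediator genes, *Med17*, a head subunit, was higher by 0.55 and 0.86, with 1 of its 2 probes called in each kind of clone. It lost its call in TSA(-) with slide as a fixed block (adjusted p = 0.0245). *Med21* and *Med24* were called higher in TSA(+) only (0.80 and 0.51, against 0.36 and 0.13 in TSA(-)). Both lost these calls with slide as a fixed block (adjusted p = 0.0285 and 0.0117).

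**Figure D4:**
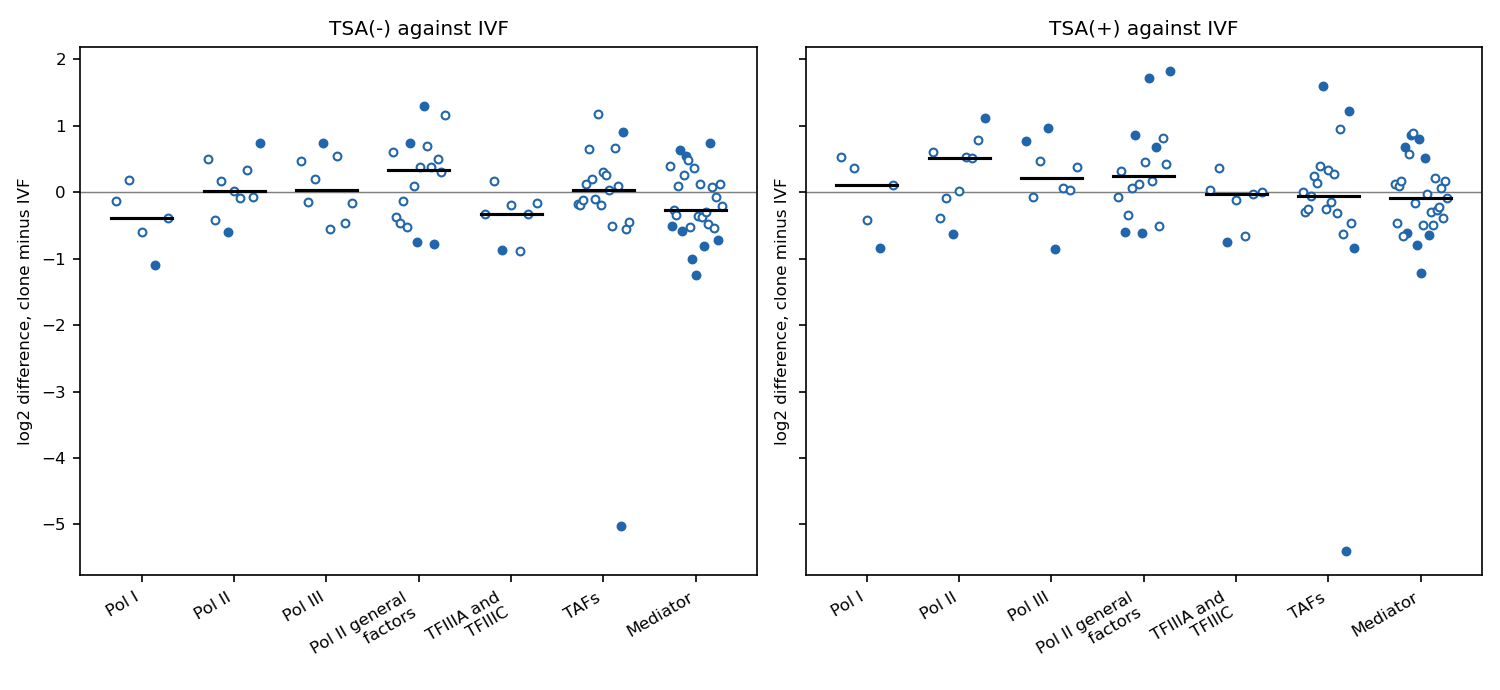
log2 difference of each gene from IVF for TSA(-) (left) and TSA(+) (right), by complex, with filled points for genes called by limma at an adjusted p under 0.01 and a bar at the median. Most points lie between -1 and 1 with medians near 0, and *Taf7l* stands alone at -5.03 and -5.41.

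Among genes lower in clones, *Med22* lay between 3.11 and 3.68 in IVF, between 1.88 and 2.63 in TSA(-) and between 1.87 and 2.64 in TSA(+). It was lower by -1.24 ± 0.18 and -1.21 ± 0.19 (adjusted p = 3.5e-06 and 1.47e-05). *Polr1d* lay between 4.32 and 4.78 in IVF, between 2.96 and 4.07 in TSA(-) and between 3.46 and 4.0 in TSA(+), with differences of -1.09 ± 0.16 and -0.84 ± 0.17 (adjusted p = 5.24e-06 and 0.000377). *Gtf3c2*, a TFIIIC subunit, was lower by -0.88 and -0.75, *Med26*, a middle subunit tied to elongation, by -0.81 and -0.65, *Gtf2f2* by -0.74 and -0.61, and *Polr2g* by -0.59 and -0.63. *Med22*, *Polr1d*, *Gtf3c2* and *Gtf2f2* have 2 probes each, of which only 1 was called lower in each kind of clone. *Med20* was lower by -1.0 and -0.79 with overlapping arrays, and in TSA(+) it was called in only 2 of 12 refits that left out 1 array, as *Gtf2f2* was in 5 of 12. With slide as a fixed block, *Gtf2f2* lost its call in both (adjusted p = 0.044 and 0.0164), *Polr2g* in TSA(-) (adjusted p = 0.0893) and *Med20* in TSA(+) (adjusted p = 0.0145). Other genes were called in TSA(+) and not in TSA(-), although none was called between TSA(+) and TSA(-) directly. Among them were *Gtf2ird2* (1.83, against 1.16 in TSA(-)), *Taf1c* (1.60, against 1.18), *Polr3a* (0.77, against 0.48), *Polr3f* (-0.85, against -0.55) and *Gtf2a2* (-0.59, against -0.47). *Gtf2a2*, the small TFIIA gene, lost its call in TSA(+) with slide as a fixed block (adjusted p = 0.0106). Of the 12 refits that left out 1 array, 9 called *Taf1c*, 3 called *Polr3a* and 3 called *Polr3f*, and *Polr3f* lost its call with slide as a fixed block (adjusted p = 0.0201).

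Whether TSA changed these genes was tested directly. No gene of the 91 was called between TSA(+) and TSA(-) by limma, where 0.11% of named genes were called. *Polr2k*, a subunit shared by the 3 polymerases, had the largest difference, 0.86 (adjusted p = 0.0451). *Polr2i* lay between 1.52 and 2.24 in TSA(-) and between 2.31 and 2.72 in TSA(+), without overlap, a difference of 0.62 ± 0.15 (adjusted p = 0.037). It was called under normexp (adjusted p = 0.00709) and, with *Polr2k* and *Polr3k*, by Tukey's test after a one-way test. *Taf7l* differed by -0.38 ± 0.57 and *Taf7* by -0.72 ± 0.22 (adjusted p = 0.785 and 0.0922). A dimmer probe of *Med1* gave -1.47 (adjusted p = 0.00867), while its other probes gave -0.27 and -0.11.

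Spi-C mRNA was injected into clones without TSA, and the 8 arrays of both concentrations together (Spi-C NT) were compared with TSA(-). Of the 91 genes, 6 were higher and 25 lower (34.1% called), where 24.3% of named genes were called, 13.2% higher and 11.1% lower. By complex, TAFs had 0 higher and 7 lower, Pol III 0 and 3, Mediator 3 higher and 6 lower, Pol II 1 and 3, the general factors 1 and 3, Pol I 0 and 2, and TFIIIA and TFIIIC 1 and 1. Quantile normalization gave 9 higher and 19 lower in all, and normexp 10 and 26, with no TAF higher under either. Among the 38 genes with several probes, 15 had some probes called and some not. Slide, scanner model and software version differ between the groups and cannot be told apart from the injection.

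*Taf7* lay between 0.88 and 1.38 in TSA(-), at -0.31, 0.37, -0.74 and -0.34 in Spi-C 1.0 and at -0.96, -0.55, -0.21 and -0.62 in Spi-C 0.1. It fell by 1.49 with an SE of 0.16 (adjusted p = 7.59e-08) with no overlap. *Polr3gl* lay between -0.14 and 0.70 in TSA(-), at -0.68, -0.97, -0.99 and -1.08 in Spi-C 1.0 and at -1.21, -0.99, -1.17 and -1.0 in Spi-C 0.1. It fell by 1.36 with an SE of 0.14 (adjusted p = 6.41e-08) with no overlap. *Taf1d* fell by 1.19 (SE 0.14, adjusted p = 4.59e-07), *Taf13* by 0.92 (SE 0.09, adjusted p = 1.18e-08) and *Taf9b* by 0.75 (SE 0.12, adjusted p = 3.85e-05), all without overlap. *Taf13* lay between 5.81 and 6.30 in TSA(-) and between 4.94 and 5.28 on the injected arrays.

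*Polr2i* was the Pol II gene that rose, from between 1.52 and 2.24 in TSA(-) to between 2.50 and 3.03 on the injected arrays (0.96 ± 0.10, adjusted p = 6.53e-08). *Med25*, a tail subunit, was higher by 0.98 ± 0.15 (adjusted p = 2.33e-05) with overlapping arrays. *Taf7l* lay between -5.71 and -4.76 on the injected arrays, still under the lowest IVF array, and its difference from TSA(-), 1.30 ± 0.54, did not pass the test (adjusted p = 0.0672). *Gtf2a1l* and *Gtf2e1* did not pass either (0.62, adjusted p = 0.0234, and -0.00, adjusted p = 0.988).

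**Figure D5:**
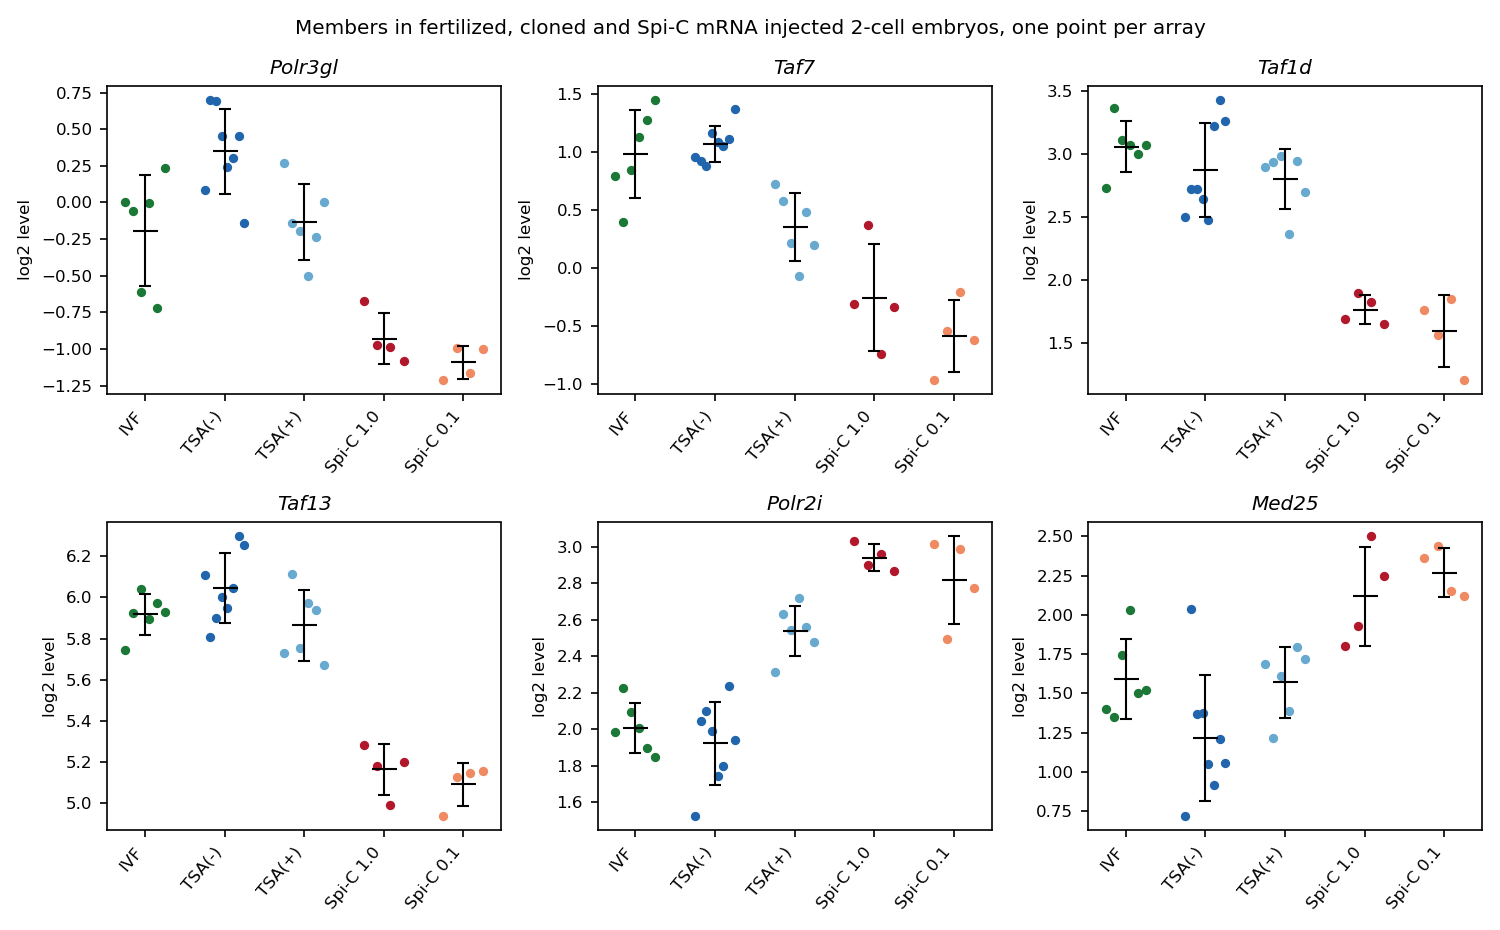
log2 level on every array (points) with the mean and SD of IVF, TSA(-), TSA(+), Spi-C 1.0 and Spi-C 0.1 for genes that differed between the Spi-C groups and TSA(-), each panel with its own axis. The arrays of both concentrations lie together, below TSA(-) for *Taf7* and *Polr3gl* and above it for *Polr2i*.

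Of the 24 genes with an ETS core in the 250 bases before the start, 0 were higher and 6 lower after Spi-C injection (*Gtf2f1*, *Gtf3c6*, *Med17*, *Taf11*, *Taf13* and *Taf1a*), and of the 56 with a window without it, 6 were higher and 14 lower. That is 25.0% and 35.7% called, where over the named genes tested 26.7% of the 1527 with the core were called (10.6% higher and 16.1% lower) and 24.2% of the 11485 without it (13.6% and 10.6%). *Med17* was called in only 5 of 16 refits that left out 1 array. Between the concentrations, 1.0 against 0.1 mg/ml, limma called none of the 91 genes, where it called 0% of named genes and 0.00506% of all probes. The largest difference in either direction was 0.82.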

How the data were processed

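RNA from oocytes, 2-cell embryos and cumulus cells was labelled with Cy3 and hybridised to 39 one-colour Agilent Whole Mouse Genome arrays, grouped by the labels. The deposited scanner files give intensities made with Agilent Feature Extraction (version 9.5.3.1 in the submitters' processing notes), background-subtracted by the authors' software and not normalized between arrays. The authors also deposited log2 values, which matched the log2 values used here once each probe was centred on its median (median absolute differences of 0.00914 to 0.0829 per array, column medians of -0.299 to 1.08). They were used as an alternative, and how their centring was done is not known.

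Control and outlier spots were left out (1820 probe values missing), spots of a probe were averaged, and log2 intensity minus the 75th percentile of each array was taken. Probes of at least 10 in 1 or more IVF or cloned arrays were tested (39520 of 41174) with lmFit and eBayes in limma 3.58.1 (R 4.3.3), in a fit of OC, IVF, TSA(-), TSA(+) and Cumulus and another of the 5 groups of 2-cell embryos, all groups sharing 1 estimate of the spread. Called means a Benjamini-Hochberg adjusted p under 0.01 over all probes tested. The script was tested on simulated data. Probes were named through RefSeq (23427 of 41174), and 38 of the 91 genes have several probes. Named in the text are, per comparison and complex, the called genes with the largest non-overlapping changes (up to 2 each way), large polymerase subunits, germ-cell copies with their partners, and a few chosen after their values were seen (*Taf13*, *Taf11*, *Med20*, *Med25*, *Polr2i*, *Polr2k* and the small TFIIE and TFIIF subunits among them). A probe well above background on no array of a group, and *Gtf2e1* in OC, gave a bound on the fold, and for other probes measured on some arrays of a group their number is given. The genes and lists were chosen with earlier results of these data known. Alternatives were another scaling or background correction, the authors' values, other filters, tests, fits and blocks, and leaving out each array. Further cumulus arrays of the study were not analysed here. The number of arrays limits the precision.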

Additional observations from a re-analysis of the deposited data

Results flagged for a closer look

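Over the 30 genes whose array values are described, 210 sets of a gene and a group were searched for a single array far from the rest by Dixon's test, which chance flags in about 1 of 20 sets, and 11 were found. *Taf7l* gave 3 of them: OC replicate 5 at -5.78 (the rest -7.91 to -7.04), IVF replicate 4 at -3.95 (the rest -1.56 to -0.67) and TSA(-) replicate 5 at -4.91 (the rest -7.22 to -6.41). Even that IVF array stayed above every TSA(-) and TSA(+) array, whose highest values were -4.91 and -4.33. *Gtf2e1* was -3.89 in OC replicate 7 (the rest -7.98 to -6.64), the only OC array on which it was well above background. *Gtf3c2* was 3.56 in OC replicate 6 (the rest 2.54 to 2.96). *Gtf2a1l* was -0.15 in IVF replicate 4 (the rest 0.18 to 0.36), and *Taf8* was -0.14 in IVF replicate 5 (the rest 0.49 to 0.61). *Polr1a* was 1.77 in TSA(+) replicate 3 (the rest 1.28 to 1.46). *Polr1e* was 1.94 in Spi-C 1.0 replicate 1 (the rest 1.62 to 1.67), *Taf13* was 4.94 in Spi-C 0.1 replicate 1 (the rest 5.13 to 5.16), and *Gtf3c5* was 1.90 in Cumulus replicate 2 (the rest 1.42 to 1.48).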

How the results depend on the processing

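Counts of called genes changed by over 1.5 times in these settings. TSA(-) against IVF gave 20, but 8 with slide as a fixed block, 33 at an adjusted p under 0.05 and 5 with a change of at least 2-fold. TSA(+) against IVF gave 25, but 7 with at least 2-fold. TSA(+) against TSA(-) gave 0, but 1 under normexp, 3 by Tukey's test and 2 at an adjusted p under 0.05. Spi-C NT against TSA(-) gave 31, but 17 with all 7 groups in 1 fit and 4 with at least 2-fold. With the replicate number as a block it gave 14, and the other comparisons gave 82 (IVF against OC), 62 (IVF against Cumulus), 78 (OC against Cumulus), 18 (TSA(-) against IVF), 22 (TSA(+) against IVF), 0 and 0. Same-numbered arrays did not deviate together (correlations of -0.0875 to 0.0846), and the numbers were not used to pair them. These values cannot show whether same-numbered pools shared animals or days. Without each array in turn, counts ran from 79 to 83 (IVF against OC), 61 to 65 (IVF against Cumulus), 77 to 81 (OC against Cumulus), 14 to 21 (TSA(-) against IVF, 14 without IVF replicate 6), 18 to 23 (TSA(+) against IVF, 18 without IVF replicate 5), 26 to 29 (Spi-C NT) and 0 to 0 for TSA(+) against TSA(-) and between Spi-C concentrations. No called gene changed sign, and the calls of 4, 8, 4, 7, 7 and 6 genes were lost at least once in these comparisons, in that order. Named genes that turned direction were, in IVF against OC under quantile normalization, *Gtf2a1* (0.28), *Med1* (0.45), *Polr2c* (0.35), *Polr2g* (0.23) and *Taf9* (0.62), and with the mean over probes *Gtf2a1* (0.45) and *Polr3b* (0.79). With the mean over probes *Med14* turned to -2.34 against IVF and -2.44 in OC, each against Cumulus, and *Polr3b* to 2.25 in IVF against Cumulus. Within slides that held both groups, all 83 called genes of IVF against OC kept their sign on slides 2 and 5, the 20 of TSA(-) against IVF on slides 2 and 5 and 19 of them on slide 9, and the 25 of TSA(+) against IVF on slides 3, 7 and 9. Each of these slides held 1 or 2 arrays of a group, and the same arrays were in the fits that made the calls. Agreement of sign could therefore not test for an effect of slide. Slide or scan day as a fixed block could not be fitted for Cumulus or for Spi-C NT against TSA(-). The cause of these changes was not tested.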

Other observations

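Partners of these complexes that the choice by name leaves out were measured as 48 genes. Those named below are examples, given by their log2 differences only. In IVF against OC, 21 were higher and 18 lower by limma (81.2% called, against 72.1% of all named genes). *Hexim1*, which holds the elongation kinase P-TEFb inactive, and *Gpn3*, needed for nuclear import of Pol II, were among those higher (log2 differences of 8.50 and 8.20), as was *Brf1*, the TFIIB-like factor of Pol III (4.94). *Tbp* and its oocyte copy *Tbpl2* were lower (-1.60 and -3.22), as were the TFIIH kinase *Cdk7* (-2.07) and the Mediator kinase *Cdk8* (-0.91). *Tbpl2* was 5.53 higher in OC than in Cumulus and *Tbp* 2.92 higher. In clones against IVF, 8 were higher and 7 lower in TSA(-) (31.2% called, against 23.6%) and 11 and 7 in TSA(+) (37.5%, against 24.5%), with *Cdk19*, a copy of *Cdk8*, at 1.94, *Tbp* at -0.68 and the cyclin *Ccnt1* of P-TEFb at -1.21 in TSA(-). After Spi-C injection, 2 of the 48 were higher and 14 lower than in TSA(-) (33.3% called, against 24.3%, of which 13.2% higher and 11.1% lower), among them *Leo1* of the elongation complex PAF1 (-2.0), *Ccnt2* (-1.34) and *Cdk9*, the kinase of P-TEFb (-0.84). Slide, scanner model and software version differ between the Spi-C arrays and TSA(-) here too. None of the 48 was called between TSA(+) and TSA(-) or between the Spi-C concentrations.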
